A study of Mus musculus with 5 samples.

Results

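The 6 genes described here encode intermediate filament proteins of the cytoplasm (Vim, Des and Nes) and of the nuclear lamina (Lmna, Lmnb1 and Lmnb2). They were chosen by symbol, and all 6 are among the 12615 genes of the deposited value table. RNA was sequenced from C2C12 cells, an established mouse line of myoblasts, the dividing precursors of skeletal muscle fibres, grown in medium with fetal bovine serum. The 3 empty vector samples were transfected with the control plasmid pCMVmiR and the 2 samples labelled miR-16 knockdown with a plasmid for miR-16-1, each for 5 hours, so that every group carries a transfected plasmid. The label and the protocol do not settle whether the plasmid lowers or supplies the miRNA, and miR-16 itself was not analysed here. Which way it was shifted rests on names alone, knockdown in the label and inhibition in the authors' deposited table. Whether replicates were separate cultures is not stated in the labels, so p-values may reflect technical spread only. Empty vector samples are called controls below.

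Intermediate filaments are rope-like polymers that give a cell and its nucleus mechanical strength. Vimentin, the product of Vim, is the filament protein of mesenchymal cells, desmin (Des) is that of muscle, and nestin (Nes) is a long partner protein of precursor cells that assembles together with vimentin or desmin. In developing muscle, vimentin and nestin are known as proteins of the precursor stage, while desmin is kept and aligns with the contractile apparatus. Lamins form the mesh under the inner nuclear membrane. Lmna gives lamin A and lamin C by alternative splicing, and Lmnb1 and Lmnb2 give the B-type lamins, which stay anchored to the membrane by a farnesyl group.

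The question of the series is what the myoblast expresses when miR-16 is altered, so the sites that miR-16 could bind in these genes are given first. MicroRNAs pair through their seed, bases 2 to 8, with short sites in the 3' UTR of messenger RNAs. The mature sequence of miR-16-5p is shown with those of miR-15a-5p and miR-15b-5p, which have the same seed (capitals), as given by RefSeq for GRCm38.p6.
mmu-miR-16-5p: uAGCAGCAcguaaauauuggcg
mmu-miR-15a-5p: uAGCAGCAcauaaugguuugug
mmu-miR-15b-5p: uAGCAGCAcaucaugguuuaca

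The longest annotated 3' UTR of each gene (GENCODE M21, GRCm38) was searched on the transcript strand for TGCTGCT, the reverse complement of the seed, and for GCTGCTA, its last 6 letters followed by A. Of the 6 genes, Lmnb2 alone held a match, and it held 2 in a 3' UTR of 1656 nt. No match was found in the 3' UTRs of Des (1529 nt), Lmna (926 nt), Lmnb1 (776 nt), Nes (421 nt) and Vim (342 nt). Among 11357 tested genes with a 3' UTR, 29.3% held at least 1 match and 9.43% held 2 or more. One Lmnb2 match is shown, in capitals, because no other gene of the family had a match. It is of the GCTGCTA kind and starts at position 260 of the 3' UTR of the longest Lmnb2 transcript. The stretch shown lies at chr10:80902582-80902610 of GRCm38, on the minus strand.
Lmnb2 match: gcaggagaatgGCTGCTAgctcagggtgg

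Lmnb2, the lamin B2 gene on chromosome 10, had normalized read counts of 1637, 1576 and 1497 in controls 1, 2 and 3. Knockdown samples 1 and 2 had 1463 and 1679. A normalized count is the number of reads after scaling by a factor for the sample's depth. The knockdown samples held the lowest and the highest value of the 5, with the empty vector samples between them. The knockdown mean was 1571 ± 153 (SD, n = 2) and the control mean 1570 ± 70.5 (SD, n = 3). The log2 difference, knockdown minus empty vector, was -0.0012 with a standard error of 0.089 (limma, adjusted p = 0.998). Its 95% interval runs from 0.876-fold to 1.14-fold.

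**Figure D1:**
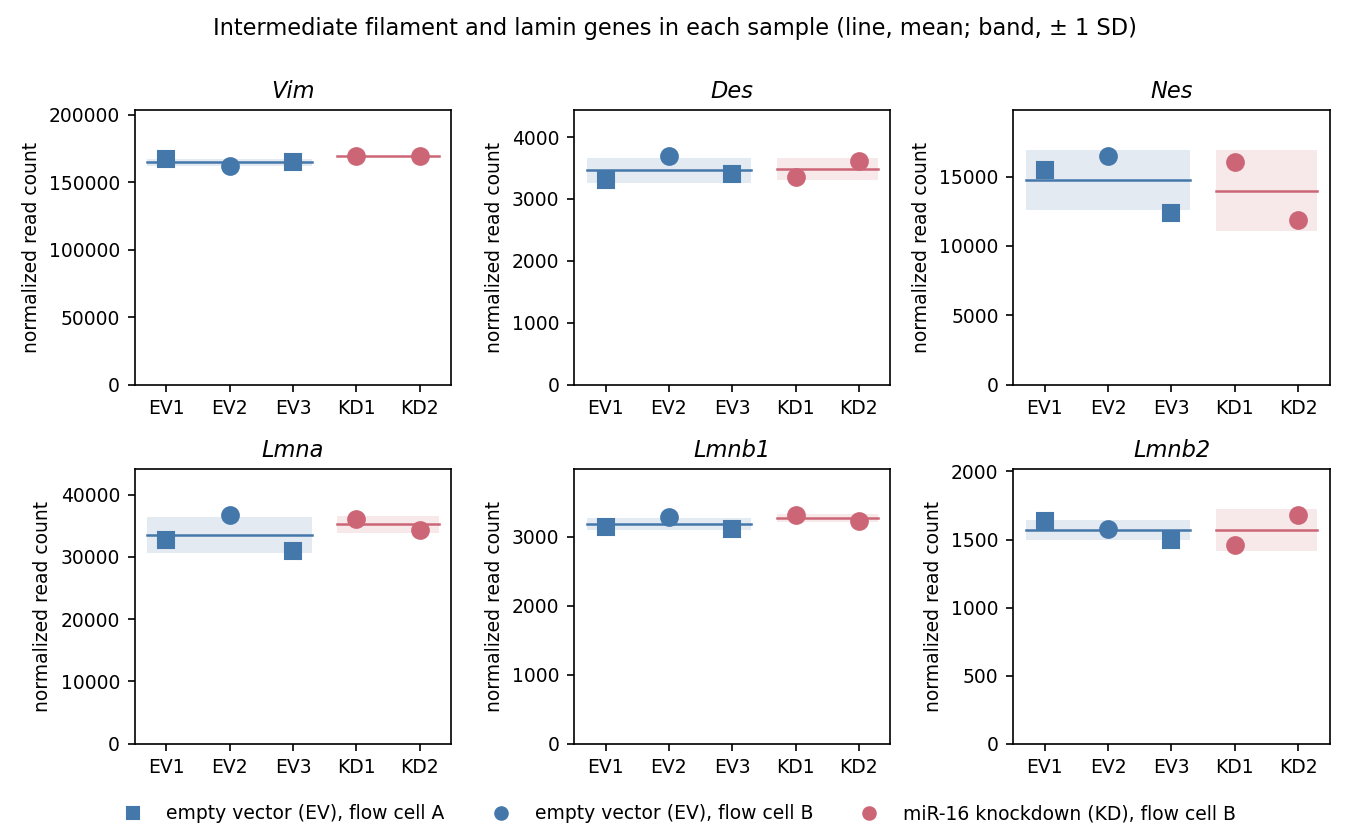
Normalized read count (vertical axes, from 0) of the 6 genes in each sample, with empty vector samples in blue (EV1 to EV3), knockdown samples in red (KD1 and KD2), squares for flow cell A and circles for flow cell B. Lines are group means and bands ± 1 SD, and Vim is the gene whose groups do not overlap, at 161801 to 167399 against 169063 and 169339.

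The fit detected no difference between the groups for any of the 6 genes. Its standard errors draw on the spread of other genes as well as on that of the gene itself. All 6 passed the filter on low values, a mean of at least 10, and 0 of the 6 passed an adjusted p of 0.05, where 0 of 11990 genes tested, or 0%, did. At an unadjusted p under 0.05 there were also 0 of the 6, against 8.13% of all genes. Their log2 differences had a median of 0.024, with 4 above and 2 below 0, beside a median of 0.00073 over all genes. In the authors' deposited table, 0 of the 6 genes had a false discovery rate under 0.05, against 1.06% of the 6588 genes listed in it. The ratios of inhibition to control in the authors' deposited table ran from 0.946 for Nes to 1.05 for Lmna, with false discovery rates of 0.825 and 0.761.

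Vim, on chromosome 2, was the most abundant messenger RNA of this family by far. Controls 1, 2 and 3 had 167399, 161801 and 164670 normalized counts, and knockdown samples 1 and 2 had 169339 and 169063. Both knockdown samples thus lay above every empty vector sample, a pattern that held for 1 of the 6 genes and for the 23.8% of all genes whose groups do not overlap in either direction. The means were 169201 ± 195 (SD, n = 2) and 164623 ± 2799 (SD, n = 3), and the log2 difference was 0.040 with a standard error of 0.054 (limma, adjusted p = 0.867). The 95% interval was 0.949-fold to 1.11-fold. Against control 2 alone the log2 difference was 0.065, with quantile normalization 0.34, and with the trend on longest transcript length removed -0.0059. Vim took between 0.993% and 1.06% of the signal of a sample. It ranked first in the table in control 2 and in both knockdown samples, and second, behind the 18S ribosomal RNA gene Rn18s, in controls 1 and 3.

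Des, the muscle filament gene on chromosome 1, stood at 3305, 3694 and 3400.5 normalized counts in controls 1, 2 and 3. Knockdown samples 1 and 2 had 3360 and 3613. The groups overlapped, with the highest value in control 2 and the lowest in control 1. The log2 difference was 0.0089 with a standard error of 0.080 (limma, adjusted p = 0.984), and the 95% interval was 0.894-fold to 1.13-fold. Exons of the antisense gene Gm15179 share 220 bases with Des, and without the strand setting reads of the pair cannot be told apart.

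Nes, on chromosome 3, varied most. Controls 1, 2 and 3 had 15479, 16482 and 12358 normalized counts, and knockdown samples 1 and 2 had 16038 and 11902. Each group thus held a low sample, control 3 and knockdown 2, which are on different flow cells, and the other 3 samples were high. The control mean was 14773 ± 2151 (SD, n = 3) and the knockdown mean 13970 ± 2925 (SD, n = 2). The log2 difference was -0.086 with a standard error of 0.16 (limma, adjusted p = 0.911), and the interval from 0.723-fold to 1.23-fold is the widest of the 6. Without knockdown 1 the log2 difference was -0.30, and without knockdown 2 it was 0.13. Nes has a long transcript, of 6126 nt at most, and the samples differ in how counts follow length. Over all genes the slope of the log2 value on doublings of longest transcript length was 0.070, -0.018 and 0.056 in controls 1, 2 and 3. It was -0.014 in knockdown 1 and -0.094 in knockdown 2. The samples low for Nes, control 3 and knockdown 2, thus had slopes of opposite sign. With a smooth trend on longest transcript length removed from each sample, in place of these straight slopes, Nes had a log2 difference of 0.016. Whether length has a part in the Nes values was not tested beyond this removal.

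The highest Nes sample was 1.38 times the lowest, and its lowest estimated read number, 11535, gives a counting error of 0.931%. Among the 500 genes nearest to it in mean count, 90.0% had a narrower range over the 5 samples. Vim and Lmnb1 were at the other end, with 2.80% and 5.00% of their 500 neighbours narrower. Vim ranks 2 by mean count, so its 500 are nearly all genes of lower count. Over the 5 samples the coefficient of variation was 1.92% for Vim, 2.68% for Lmnb1, 4.87% for Des, 5.81% for Lmnb2, 6.90% for Lmna and 14.9% for Nes.

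Lmna, the A-type lamin gene on chromosome 3, had 32751, 36698 and 30999 normalized counts in controls 1, 2 and 3. Knockdown samples 1 and 2 had 36106 and 34283. The highest and the lowest value were both in controls. The knockdown mean was 35194 ± 1289 (SD, n = 2) and the control mean 33483 ± 2919 (SD, n = 3). Counts per gene do not separate lamin A from lamin C. The log2 difference was 0.075 with a standard error of 0.074 (limma, adjusted p = 0.82), the largest above 0 in the family, with an interval of 0.944-fold to 1.18-fold. Without control 2 it was 0.14.

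Lmnb1, the lamin B1 gene on chromosome 18, stood at 3146, 3294 and 3123 normalized counts in controls 1, 2 and 3. Knockdown samples 1 and 2 had 3318 and 3230. Knockdown 2 lay below control 2, so the groups overlapped. The means were 3274 ± 61.7 (SD, n = 2) and 3188 ± 92.6 (SD, n = 3), and the log2 difference was 0.039 with a standard error of 0.075 (limma, adjusted p = 0.911). The interval was 0.919-fold to 1.15-fold.

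Flow cell was set beside the values of the 6 genes. By the column names, controls 1 and 3 were sequenced on a flow cell called A here, and control 2 with both knockdown samples on another, B. Their lanes differ along the same line, so flow cell and lane cannot be told apart. Every flow cell B sample was above every flow cell A sample for Lmna and for Lmnb1, so that 2 of the 6 genes split by flow cell, a share close to the 32.6% of all tested genes that split in either direction. The flow cell A mean was 31875 for Lmna, and control 2 stood at 1.15 times it. For Lmnb1 this ratio was 1.05, for Des 1.10, for Nes 1.18, for Lmnb2 1.01 and for Vim 0.975. With control 2 as the only control, the log2 differences were -0.061 for Lmna, -0.0088 for Lmnb1, -0.084 for Des, -0.26 for Nes and -0.0076 for Lmnb2. The directions for Lmna, Lmnb1 and Des are thus opposite to those against all 3 controls. With 1 control the spread comes from the knockdown pair alone, so these values are given with no test.

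**Figure D2:**
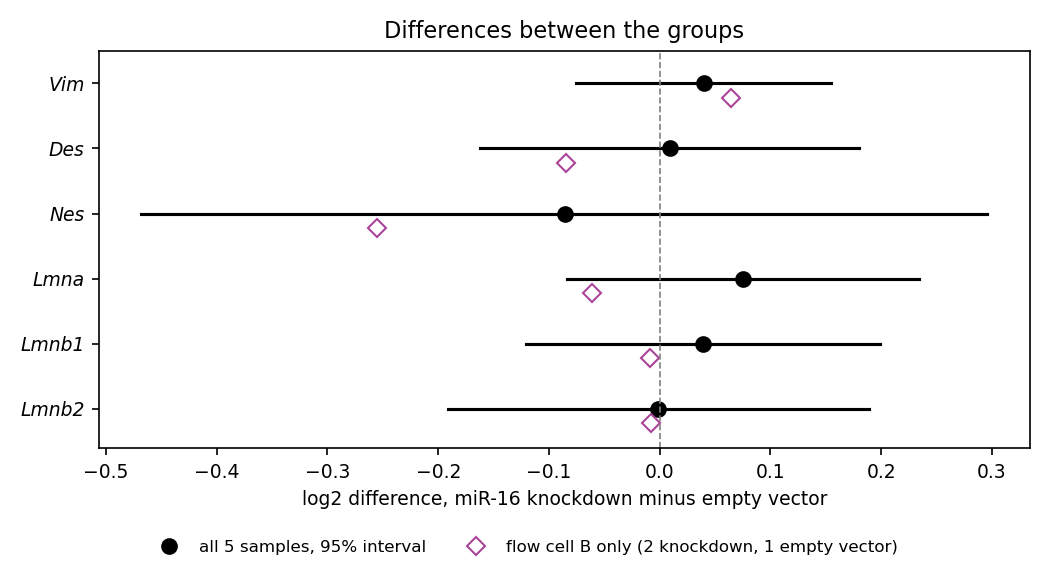
Log2 difference of each gene, knockdown minus empty vector (horizontal axis), over all 5 samples with its 95% interval from limma (black), and on flow cell B alone with control 2 as the only control (open diamonds). Every black interval includes 0, and the diamonds of Lmna, Lmnb1 and Des lie on the other side of 0 from the pooled values.

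Levels of different genes were compared per kilobase of transcript, with the median length over the protein-coding transcripts of a gene. Vim stood at 93672 ± 1799 normalized counts per kb (SD, n = 5), rank 5 of 12308 genes. Lmna followed at 19211 ± 1325 (rank 41) and Nes at 2392 ± 357 (rank 776). Des at 1147 ± 55.9 and Lmnb1 at 1133 ± 30.4 did not differ beyond their spread. Lmnb2 was lowest at 466 ± 27.1 (rank 3930). Apart from Des and Lmnb1, no neighbours in this order overlapped in any sample.

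**Figure D3:**
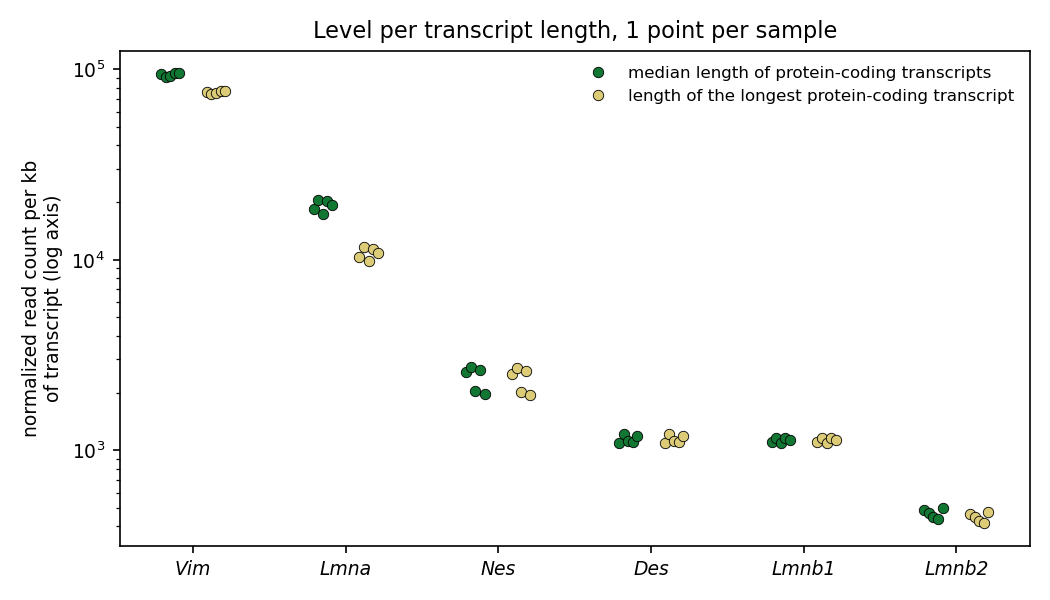
Normalized read count per kb of transcript (vertical log axis) for each gene, 1 point per sample, with lengths from the median (green) or the longest (yellow) protein-coding transcript. The order of the genes is Vim, Lmna, Nes, then Des with Lmnb1, then Lmnb2 under both lengths, and the level of Lmna is 19211 or 10826 depending on the length used.

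The composition of the cytoplasmic network RNA was dominated by Vim. Per kb, Vim was between 74.6 and 86.3 times Des in the 5 samples, a knockdown mean of 82.8 ± 4.35 (SD, n = 2) beside a control mean of 81.2 ± 5.95 (SD, n = 3). Nes to Des ran from 1.65 in knockdown 2 and 1.82 in control 3 to 2.24, 2.35 and 2.39 in the other 3 samples. These ratios overlapped between the groups. The ratios are given as a description and were not tested.

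In the lamina RNA, Lmna per kb was 11.6, 12.7 and 11.3 times the sum of Lmnb1 and Lmnb2 in controls 1, 2 and 3. In knockdown samples 1 and 2 it was 12.7 and 11.8 times that sum. With the longest transcript as length the range was 6.45 to 7.25. Lmnb1 was 2.28 to 2.69 times Lmnb2, highest in knockdown 1 and equally low in knockdown 2 and control 1. The balance of A-type to B-type lamin RNA therefore overlapped between the groups under either length.

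For each gene, the 3 genes most similar in pattern over the 5 samples, out of those averaging 50 or more, were found by the root mean square difference of centred log2 values. The closest to Lmnb1 was Sun1, an inner nuclear membrane protein gene of the complex that links the lamina to the cytoskeleton, at 0.0079, followed by Esyt1 and Trim32. Lmna was followed by Chchd2, Cavin1, which encodes a coat protein of caveolae, and Pja1, at 0.011 to 0.015. For Vim these were Gmps, Etf1 and Tfdp1, for Des Snupn, Nup62 and Gas2l1, and for Lmnb2 Tmem63b, Ccdc92 and Man1c1. The 3 genes closest to Nes were Prr5, Cep250, a centrosome linker gene, and Sik1, at the larger distances of 0.033 to 0.035. Cep250 had 1586 and 1522 normalized counts in control 3 and knockdown 2, against 1867, 2073 and 1976 in the other samples, as its choice by nearness to Nes implies.

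**Figure D4:**
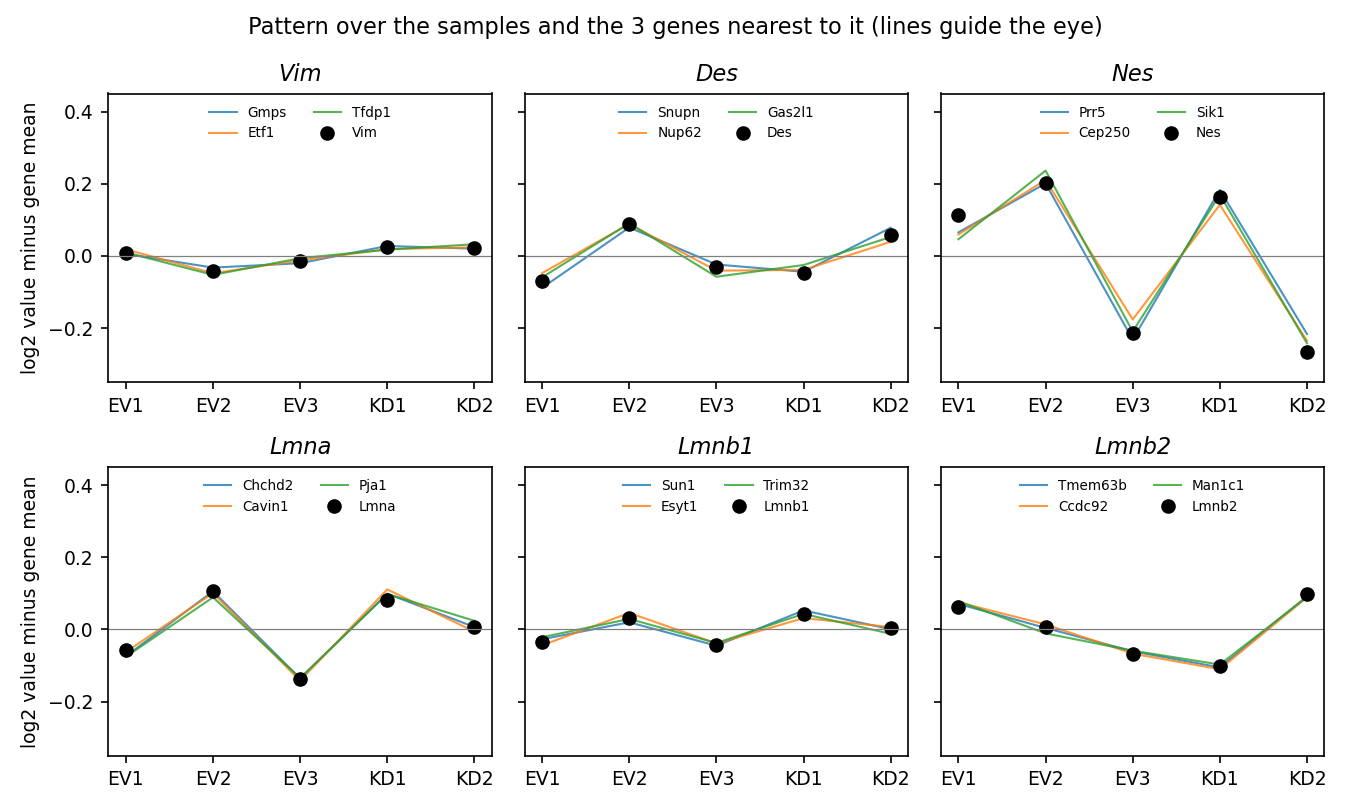
Log2 value minus the gene's own mean (vertical axis) in each sample for the 6 genes (black points) and the 3 genes nearest to each (lines, drawn to guide the eye). Nes spans 0.47 log2 units with low points in EV3 and KD2, whereas Vim spans 0.066.

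The related genes were taken in 6 lists with 71 tested genes in all, and 0 of them passed the adjusted threshold with limma. At an unadjusted p under 0.05 there were 12, or 16.9%, of which 4 were higher and 8 lower with knockdown. Of all genes 8.13% did so, 339 higher and 636 lower. The list of other filament genes also holds Eppk1, of a keratin-binding protein, and leaves out Krt14, which was fixed as an epithelial marker. Of its 7 tested genes, 4 were above and 3 below 0, with a median log2 difference of 0.080, or -0.094 on flow cell B. Krt19, an epithelial keratin gene, had 19.2 to 60 normalized counts in controls, against 73.3 and 88.2 with knockdown, a log2 difference of 1.02 (limma, adjusted p = 0.571). Krt14, a further keratin and the epithelial marker measured here, had 30 to 42.2 in controls and 33.4 and 33.8 with knockdown. Synm, which encodes the desmin partner synemin, had 21.4, 11.4 and 16.1 against 21.6 and 34.7 (limma, adjusted p = 0.699). Eppk1, which encodes the keratin-binding epiplakin, had -0.86 (limma, adjusted p = 0.597). These 3 genes are at counts under 100, far below the 6 described above.

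Of 11 tested genes for filament linkers and chaperones, 2 were above and 9 below 0, with a median of -0.031, or -0.26 on flow cell B. Macf1, a giant linker of actin and microtubules, had 7029, 6187 and 6955 normalized counts in the controls. Knockdown samples 1 and 2 had 6108 and 4347. Its log2 difference was -0.38 (limma, adjusted p = 0.565), or -0.092 with the trend on median transcript length removed and 0.034 with that on longest length removed. Without knockdown 1, which leaves knockdown 2 alone, Macf1 had -0.63 and Dst, a further giant linker chosen after its values were seen, had -1.05. With 1 knockdown sample the spread comes from the controls alone, so these values are given with no test. Over all 5 samples Dst had -0.62 (limma, adjusted p = 0.665). Jup, the plakoglobin gene of cell junctions, had a log2 difference of -0.21 (limma, adjusted p = 0.597).

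Of 18 tested genes of the inner nuclear membrane and of the LINC complex, which couples the lamina to the cytoskeleton, 14 were above and 4 below 0, with a median of 0.058, or 0.0049 on flow cell B. Syne1, which encodes the giant outer nuclear membrane protein nesprin-1, had 605, 515 and 615 normalized counts in the controls, against 465 and 338 with knockdown. Its log2 difference was -0.54 (limma, adjusted p = 0.527), or -0.48 with the trend on median transcript length removed and -0.081 with that on longest length removed. Without knockdown 1, Syne1 passed with -0.77 (limma, adjusted p = 0.034), as did Syne2, the nesprin-2 gene, also chosen after its values were seen, with -1.11 (adjusted p = 0.0115). Over all 5 samples Syne2 had -0.59 (limma, adjusted p = 0.743). Banf1, which encodes a DNA-binding partner of lamins and emerin, had 0.21, and 0.0030 on flow cell B. Nemp1, a gene of an inner nuclear membrane protein, had 0.18 (limma, adjusted p = 0.606 and 0.696 for this pair).

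Lamin precursors are farnesylated and then cut and methylated at their end. Of 6 tested genes of this maturation, 4 were above and 2 below 0, with a median of 0.035, or 0.049 on flow cell B. Rce1, the protease gene for farnesylated proteins, had 625, 646 and 617 normalized counts in the controls, against 741 and 785 with knockdown. Its groups did not overlap, as for 23.8% of all tested genes and for other genes named from the lists, Macf1 and Cdk1 among them. The log2 difference of Rce1 was 0.28 with a standard error of 0.098, and 0.24 on flow cell B (limma, adjusted p = 0.565 over all samples). Zmpste24, the protease gene that completes lamin A, had 0.060, and Narf, whose product binds prelamin A, 0.057 (limma, adjusted p = 0.862 and 0.934).

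Phosphorylation takes filaments and lamina apart when a cell divides. Of 15 tested genes for these kinases and phosphatase subunits, 10 were above and 5 below 0, with a median of 0.058, or 0.020 on flow cell B. Cdk1, the mitotic kinase gene, had 3204, 3109.5 and 3209 normalized counts in the controls, against 3426 and 3908 with knockdown, a log2 difference of 0.20 (limma, adjusted p = 0.565). Aurkb, a kinase gene of chromosome segregation, had 0.20, and Prkaca, of protein kinase A, 0.17 (limma, adjusted p = 0.597 and 0.627). Of 14 tested nuclear pore genes, 5 were above and 9 below 0, with a median of -0.068, or 0.039 on flow cell B. The lowest p were those of Tpr, Nup188 and Ahctf1, with log2 differences of -0.32, -0.20 and -0.20 (limma, adjusted p of 0.565, 0.565 and 0.597). With knockdown 2 as the only knockdown sample, Tpr had -0.53. Whether transcript length has a part in these lower values in knockdown 2 was not tested beyond the removal of its trend.

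**Figure D5:**
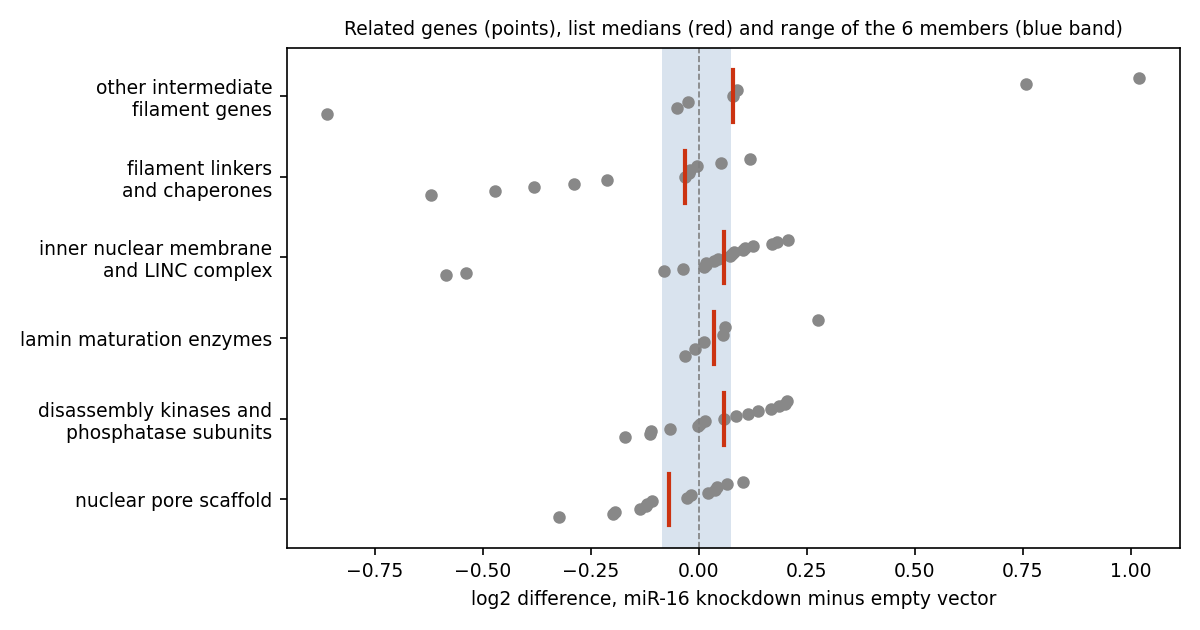
Log2 difference, knockdown minus empty vector (horizontal axis), of each tested gene in the 6 lists (points), with list medians (red) and the range of the 6 filament and lamin genes (blue band, -0.086 to 0.075). List medians lie between -0.068 and 0.080, and 0 of the points passed the adjusted threshold.

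The cells were checked against marker genes. All 10 myoblast markers were measured, among them Myod1, the determination factor of muscle, at 1536 to 1685 normalized counts, and Itga7, the muscle integrin gene, at 2677 to 2895. Others were low, with Myf5, Pax7 and Musk between 101 and 214 and Sgca at 5.39 to 17.8. The sum of the 10 markers, of which Des and Itga7 were the largest, was 10761 to 11391 with empty vector and 10817 to 11278 with knockdown. Of the 6 myotube markers, Acta1 had 34.9 to 59.3, and the others were not analysed here. Fewer cells of a type and less RNA per cell cannot be told apart in such bulk samples. Of the 27 markers fixed for other cell types, 7 were measured and the others were not analysed here, and the largest was Pdgfra of fibroblasts, at 249.9 to 262.5 with empty vector and 191.9 and 227.1 with knockdown. Cd68, a macrophage marker, had 30.8 to 70.7 with empty vector and 79.8 and 91.95 with knockdown. Kdr of endothelial cells had 13.9 to 22.7 with empty vector and 12.9 and 9.38 with knockdown. The groups did not overlap for these 3 of the 7 markers, beside 23.8% of all tested genes. They overlapped for the other measured markers, Csf1r of macrophages included. The part of these markers in the values above was not tested. Estimated depth was 15.2 to 20.1 M reads per sample, and the least abundant of the 6 genes, Lmnb2, rested on at least 1357 reads, with a counting error of 2.71%.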

How the data were processed

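The deposited table gives a normalized signal per gene for 5 samples, and its values and name point to reads scaled by a factor for each sample. Up to 100 reads, between 88.4% and 89.1% of the values were whole multiples of 1 read within 0.02 reads, so whole reads were not recovered and a count model was not used. STAR, Partek, DESeq2 1.34.0 and the build mm9 are named, per the submitters' processing notes, with no role stated. The sources used here do not give the annotation or the strand setting. The build of the positions is not settled, so chromosomes alone are taken from the table. A second deposited table holds the authors' p-values, false discovery rates and linear ratios of inhibition to control, which are copied.

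Values were taken as log2(value + 1), which understates changes at low counts. The fit covered 11990 genes, those averaging 10 or more, and was made in R 4.3.3 using limma 3.58.1, a trended prior variance and robust estimation, two-sided, with Benjamini-Hochberg adjustment over all of them. The fit was tested on simulated data. Every gene of the family is named, and from each list the 3 genes with the smallest p. A gene that this rule takes and a sequence are not reported here. The genes, lists and markers were chosen with earlier results of these data known. GENCODE M21 held 12303 of the symbols directly and 5 through older names. Samples with the same replicate number share no stated culture or day.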

Additional observations from a re-analysis of the deposited data

How the results depend on the processing

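All 96 repeats of the 6 differences under 16 alternatives kept an adjusted p above 0.05 (lowest 0.0993, for Nes), and 75 kept the direction. Those on flow cell B, or with a flow cell term, set the knockdown pair against control 2 and say nothing of stability by their p. Their differences were the same, so they are not separate checks. The replicate block, a term for the replicate number, gave the differences found without the control that has no same-numbered knockdown sample. Changes of filter, pseudocount or variance trend left the differences at their main values. The 75 thus include repeats whose direction could hardly turn. The count of genes past the threshold moved from 0 to 311 with the replicate block, and lay between 0 and 107 with 1 sample left out (28 without empty vector 2, 107 without knockdown 1). Of the 71 related genes, 7 passed with the block, and 0 to 5 with 1 sample left out. Those 5, without knockdown 1, were Dst, Macf1, Syne1, Syne2 and Tpr. The 7 with the block were these 5, Krt19 with 1.33 (limma, adjusted p = 0.0139) and Plec, the plectin gene, with -0.37 (adjusted p = 9.58e-05). Without the block, Plec had -0.29 over all samples (adjusted p = 0.649). The block rests on pairs by replicate number, and the control with no same-numbered partner has no part in its differences. Its adjusted p are therefore not read as evidence of a change, nor as a second test of the differences without knockdown 1. Replicate numbers mark no stated pair. Same-numbered samples had correlations of deviations of 0.0864 and 0.0286, but 2 knockdown samples deviate from their mean by equal and opposite amounts. These correlations therefore cannot show whether samples were paired. The block gave -0.0042 for Des and -0.21 for Nes.

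With a flow cell term, as on flow cell B alone, Des had -0.0843, Lmna -0.0608 and Lmnb1 -0.00878. With the trend on median transcript length removed, Nes had 0.042 and Lmnb2 0.036. On the longest transcript, an alternative chosen after seeing the data, Des had -0.0042, Vim -0.0059, Nes 0.016 and Lmnb2 0.0044. Quantile normalization gave 0.024 for Lmnb2, and 0.34 for Vim (adjusted p = 0.635), whose rank differs between samples. With 1 sample left out, Des ran from -0.0435 to 0.061, Nes from -0.30 to 0.13, Lmnb2 from -0.10 to 0.098, Lmna from 0.021 to 0.14, Lmnb1 from 0.020 to 0.063 and Vim from 0.027 to 0.052. The cause of these moves was not tested. Where a knockdown sample is left out, the other is assumed to vary like the controls. By longest transcript, Vim stood at 75903 and Lmna at 10826 normalized counts per kb. The number of family genes with a site was 1 with any annotated 3' UTR. The count model was not run. Depth limits the related genes at low counts most.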
